A study of Mus musculus with 6 samples.

Results

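The distal stretch of mouse chromosome 11, from 40 Mb to its end in the mm10 build, held 796 of the 12105 genotype-specific ATAC-seq peaks of microglia lacking or carrying the Mir137 gene. Its members are the peaks of both deposited lists that start at or beyond that position, 631 from the list named as specific to the knockout (cKO) and 165 from the list named as specific to the wild type (cWT). The stretch was picked because its peaks lean to cKO, so its balance is described here without a test. ATAC-seq marks open chromatin through the insertion of sequencing adapters by the Tn5 transposase. Each of the 6 libraries, 3 per genotype, came from about 50000 sorted brain microglia of C57BL/6J mice aged 8 weeks. The cKO animals were Mir137 loxP/loxP and the cWT animals Mir137 +/+, and both carried Tmem119-CreERT2 and received tamoxifen on 7 consecutive days, begun at 7 to 8 weeks of age. The recombinase is thereby restricted to cells that use the Tmem119 gene, and the lists do not show how completely Mir137 was removed. The series text gives 4 mice without tying them to libraries. The lists hold 1 row per peak and no value per library, so depth is unknown and no spread between libraries can be given. Every interval printed here is an exact (Clopper-Pearson) 95% interval and covers counting error only.

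Microglia, the brain's own macrophages, survey it for damage and infection. miR-137 is a small regulatory RNA best known from neurons, which lowers the output of mRNAs that pair with its seed. Distal chromosome 11 is a gene-dense part of the mouse genome. It carries the type 2 cytokine genes, the CC chemokines, several immunity-related GTPases, inflammasome sensors, the CD300 receptors, Stat3 with both Stat5 genes, and also large families with little role in macrophages, such as odorant receptors and keratins. Open chromatin at a promoter or enhancer permits transcription factors to bind, but a peak near a gene is not shown to act on it.

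The promoters below are shown because specific peaks cover them and they stand for the kinds of genes met along the stretch. Each is the 250 bases before an annotated start, from RefSeq GRCm38.p6, 5′ to 3′ on the gene's strand, with matches to a searched motif in capitals. The motifs with a match below or counted further on include the GC box GGGCGG, the CCAAT box CCAAT, the E-box CACGTG, the AP-1 site TGANTCA, the PU.1 or ETS site GAGGAAGT and the interferon-stimulated response element (named here only), each on both strands. The first 6 lay in cKO peaks over all 250 bases, Pdk2 lay wholly in a cWT peak, and Ddx52 had 93 of 250 bases in a cWT peak.
Gm11205 (plus strand, chr11:79704320-79704569): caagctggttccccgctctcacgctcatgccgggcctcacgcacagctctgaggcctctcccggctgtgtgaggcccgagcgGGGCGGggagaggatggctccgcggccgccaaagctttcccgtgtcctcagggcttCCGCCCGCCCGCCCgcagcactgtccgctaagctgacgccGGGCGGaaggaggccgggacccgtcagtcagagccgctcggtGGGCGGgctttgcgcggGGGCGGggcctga
Pik3r5 (plus strand, chr11:68431875-68432124): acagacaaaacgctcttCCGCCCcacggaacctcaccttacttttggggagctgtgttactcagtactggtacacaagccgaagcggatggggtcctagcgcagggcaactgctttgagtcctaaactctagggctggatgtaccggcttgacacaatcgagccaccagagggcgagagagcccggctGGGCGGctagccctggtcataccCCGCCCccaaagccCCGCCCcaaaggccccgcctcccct
Nlrp1b (minus strand, chr11:71230734-71230983): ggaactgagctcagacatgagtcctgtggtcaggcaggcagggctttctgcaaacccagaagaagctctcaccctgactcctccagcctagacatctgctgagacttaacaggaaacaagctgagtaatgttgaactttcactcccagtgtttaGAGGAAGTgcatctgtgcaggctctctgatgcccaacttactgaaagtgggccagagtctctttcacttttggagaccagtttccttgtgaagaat
Lgals9 (minus strand, chr11:78984925-78985174): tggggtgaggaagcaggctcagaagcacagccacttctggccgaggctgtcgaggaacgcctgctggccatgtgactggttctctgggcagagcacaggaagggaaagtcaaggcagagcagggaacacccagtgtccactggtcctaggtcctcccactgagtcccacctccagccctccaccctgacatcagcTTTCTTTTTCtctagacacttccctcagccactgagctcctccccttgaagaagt
Irgm1 (minus strand, chr11:48871421-48871670): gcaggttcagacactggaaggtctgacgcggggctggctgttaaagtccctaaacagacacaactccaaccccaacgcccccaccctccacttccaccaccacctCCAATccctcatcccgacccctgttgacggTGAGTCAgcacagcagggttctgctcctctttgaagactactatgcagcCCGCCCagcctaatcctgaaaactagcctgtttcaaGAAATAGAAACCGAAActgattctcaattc
Trim25 (plus strand, chr11:88999153-88999402): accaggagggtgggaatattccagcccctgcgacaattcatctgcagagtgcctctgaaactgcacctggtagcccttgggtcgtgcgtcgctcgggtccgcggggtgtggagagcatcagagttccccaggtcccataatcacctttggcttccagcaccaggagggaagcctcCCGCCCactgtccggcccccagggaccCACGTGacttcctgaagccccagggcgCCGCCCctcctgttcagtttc
Pdk2 (minus strand, chr11:95040876-95041125): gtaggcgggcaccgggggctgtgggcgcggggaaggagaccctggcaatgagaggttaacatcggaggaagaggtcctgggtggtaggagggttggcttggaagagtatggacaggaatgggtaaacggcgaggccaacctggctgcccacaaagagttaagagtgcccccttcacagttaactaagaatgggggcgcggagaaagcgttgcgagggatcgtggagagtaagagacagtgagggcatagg
Ddx52 (plus strand, chr11:83941840-83942089): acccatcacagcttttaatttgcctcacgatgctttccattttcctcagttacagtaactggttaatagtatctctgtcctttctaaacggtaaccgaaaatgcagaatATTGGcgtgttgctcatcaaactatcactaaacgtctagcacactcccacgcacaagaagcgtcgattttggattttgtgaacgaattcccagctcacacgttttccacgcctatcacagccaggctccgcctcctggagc

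The sequences differ as the genes do. Gm11205, a noncoding gene beside Rab11fip4, had 73.2% GC and 7 GC boxes, 3 of them overlapping one another. Pik3r5, a regulatory subunit of the phosphoinositide 3-kinase downstream of G protein-coupled receptors, had 4 GC boxes. Irgm1, an interferon-inducible GTPase, had an overlapping pair of interferon-response elements 30 and 24 bases before its start and an AP-1 site 115 bases before it. Lgals9, which encodes galectin-9, had a single such element on the opposite strand, 55 bases before its start. Nlrp1b, an inflammasome sensor, had a PU.1 or ETS site 96 bases before its start. Trim25, a ubiquitin ligase of antiviral RNA sensing, had 2 GC boxes and an E-box. Pdk2, a kinase that restrains pyruvate dehydrogenase, had no match to these motifs, which says only that these letters are not in this window. A match is a description and not a bound site.

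Mature microRNAs are shown for some of the genes with a specific peak within 10 kb, beside the deleted miR-137 itself, whose gene lies on another chromosome. Sequences are from RefSeq, 5′ to 3′, with the seed (bases 2 to 8) in capitals, and none of these seeds is shared.
mmu-miR-137-3p: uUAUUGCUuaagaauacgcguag
mmu-miR-142a-5p: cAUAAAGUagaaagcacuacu
mmu-miR-142a-3p: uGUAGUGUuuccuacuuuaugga
mmu-miR-142b: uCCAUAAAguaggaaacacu
mmu-miR-5100: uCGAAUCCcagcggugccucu
mmu-miR-193a-5p: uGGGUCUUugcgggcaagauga
mmu-miR-193a-3p: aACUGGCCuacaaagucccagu
mmu-miR-12181-5p: uUGAGGGUgcauaaggacugga
mmu-miR-12181-3p: uCCAGGCCucuugcucucuca

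Along the stretch, cKO peaks outnumbered cWT peaks 3.82 to 1 (631 against 165, interval 3.22 to 4.57), so 79.3% were cKO (76.3% to 82.0%). Read as the last place in each genotype's numbering, the full called lists held at least 33339 cKO and 28747 cWT peaks, of which 25.8% and 12.1% are listed as specific. Because the stretch was selected on this measure, nothing is read from its excess. The part of chromosome 11 below 40 Mb held 91 cKO and 53 cWT peaks (1.72, interval 1.21 to 2.46), and the rest of the genome 7984 and 3325 (2.40, interval 2.31 to 2.50). At the boundary, the last cKO peak outside lay in Slit3 (35288971 to 35289182, signal 10.3, p-value 0.934) and the last cWT peak outside in Wwc1 (35841930 to 35842284, signal 10.9, p-value 0.922). The first peaks inside were a pair at Mat2b, a cWT peak at 40694343 (signal 7.77, p-value 0.861) and a cKO peak at 40694806 (signal 8.93, p-value 0.921). Signal and p-value are the authors' own columns, read from their layout. The signal has no stated scale, and no source used here says what the p-value tests, so neither is compared between the lists as a measure of strength. The deposited score follows this p-value in a form that tools for combining replicates use, so the column may measure agreement between replicates rather than a difference between genotypes.

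**Figure D1:**
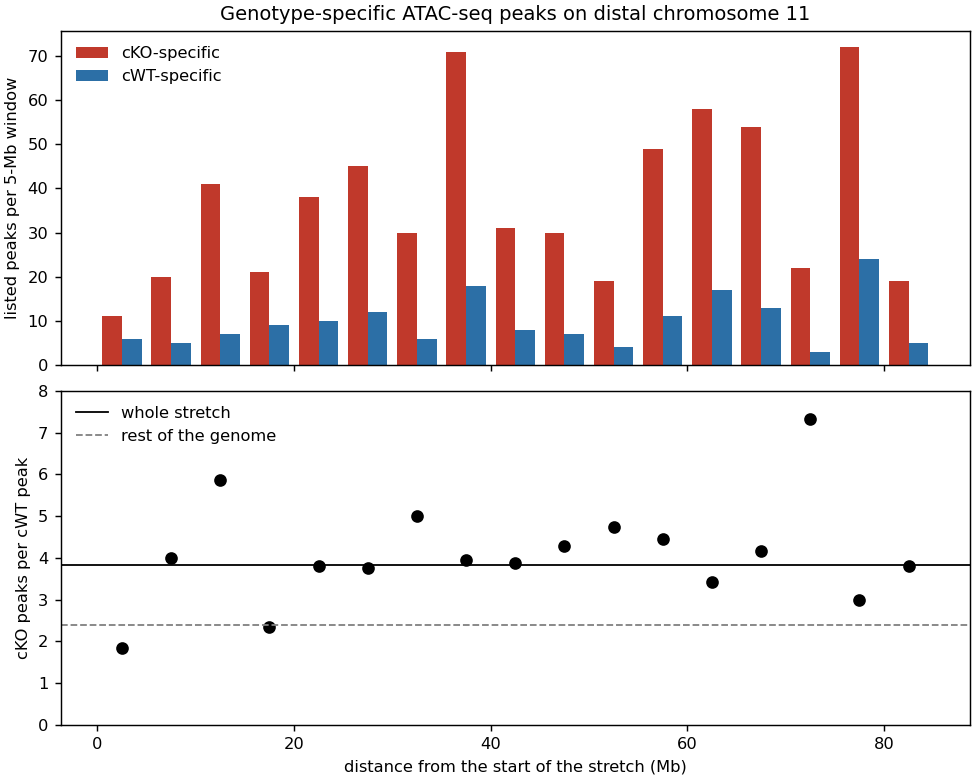
Upper panel, bars of cKO-specific (red) and cWT-specific (blue) peaks per 5 Mb window against distance from the start of the stretch in Mb; lower panel, cKO peaks per cWT peak in each window (points), with lines for the whole stretch (3.82) and the rest of the genome (2.40). In all 17 windows the cKO count is the higher of the pair, from 11 against 6 at 40 to 45 Mb to 72 against 24 at 115 to 120 Mb.

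The balance varied along the stretch. The 17 windows of 5 Mb each held more cKO than cWT peaks, with ratios from 1.83 to 7.33 and a median of 3.94. The highest ratios were at 110 to 115 Mb (22 cKO and 3 cWT), 50 to 55 Mb (41 and 7) and 70 to 75 Mb (30 and 6). The first of these surrounds the potassium channel genes Kcnj16 and Kcnj2, which had 1 assigned cKO peak each. It also holds other genes, such as Cd300a and Cd300c with 2 cKO peaks each. The second surrounds the type 2 cytokines. The lowest ratios were at 40 to 45 Mb (11 and 6), 55 to 60 Mb (21 and 9) and 115 to 120 Mb (72 and 24), of which the first and second, at 1.83 and 2.33, lay below the 2.40 of the rest of the genome.

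The stretch is gene-rich, and gene density moved with the balance elsewhere. It held 17.1 coding genes per Mb against 7.94 in the rest of the genome, and 7.70 cKO peaks per Mb against 3.13. Per 100 coding genes it held 45.2 cKO and 11.8 cWT peaks, against 39.5 and 16.4 in the rest. Windows of 5 Mb elsewhere with at least 73 coding genes, the median of the stretch's windows, had a ratio of 3.01 (2086 cKO and 694 cWT, interval 2.76 to 3.28), and those with fewer genes 2.24 (interval 2.14 to 2.35). Within the stretch the same division gave 3.73 (interval 3.02 to 4.64) in the 9 gene-rich windows and 4.02 (interval 2.96 to 5.54) in the other 8. This division was chosen after the values were seen, and the part of gene density in the balance was not tested further.

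The highest-scored peak of the whole cKO list lay on this stretch, at the start of the noncoding gene Gm11205 just downstream of Rab11fip4, whose product acts in recycling endosomes. It spanned 79704021 to 79705007 (987 bp, signal 38.2, p-value 0.00574) and covered all 300 bases of the Gm11205 promoter window. A cWT peak overlapped its left edge by 179 bp (79703524 to 79704199, signal 32.1, p-value 0.159). Both lists thus held a peak at this locus, with the cKO peak reaching across the start and the cWT peak ending before it. Rab11fip4 itself carried 3 further cKO peaks in its interior, at signals from 13.6 to 33.4. The hairpin of Mir193a lay 6962 bp beyond the cKO peak and 7770 bp beyond the cWT peak.

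Of the 10 highest-scored cKO peaks, 5 lay at a gene end. A 273 bp peak lay inside Nufip2 (p-value 0.0552), which encodes an RNA-binding partner of FMRP. A 626 bp peak (p-value 0.0754) spanned the start of Faap100, a subunit of the Fanconi anaemia core complex, with the peak's midpoint 131 bp before that start. The divergent promoters of Sap30bp and the DNA helicase gene Recql5 shared an 805 bp peak that covered both windows whole (115933186 to 115933990, signal 37.3, p-value 0.0841). Peaks at Mief2 (mitochondrial fission), Oxld1, Rai1 (a chromatin regulator) and Grb2 (the adaptor that joins receptor tyrosine kinases to Ras) had p-values of 0.0988, 0.102, 0.111 and 0.119. The third-ranked peak, 656 bp wide with a p-value of 0.0745, lay 35563 bp from its nearest coding gene, Cdkn2aipnl. The eighth was the Nlrp1b peak over the promoter shown above (71230476 to 71231244, signal 36.3, p-value 0.108).

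The highest-scored cWT peak lay in Cyth1, an exchange factor for ARF GTPases, with its midpoint 471 bp after an annotated start (118247756 to 118248418, signal 31.1, p-value 0.0878). The second was the Gm11205 neighbour, and the third lay in the cation channel gene Trpv2 (62576308 to 62577093, signal 30.9, p-value 0.198), overlapping a 1063 bp cKO peak by 71 bp. Then came a peak nearest to Hic1, a transcriptional repressor, but inside Smg6 (p-value 0.252), and peaks at the ends of Zbtb4, which binds methylated DNA (0.287), and Atp6v0a1, a subunit of the proton pump that acidifies lysosomes (0.365). The list's highest signal on the stretch, 38.04, was at the Pdk2 promoter shown above (95040591 to 95041213, p-value 0.379). Myo1c (unconventional myosin), Ddx52 (an RNA helicase) and Milr1 (an inhibitory receptor of mast cells) followed with p-values of 0.406, 0.415 and 0.464.

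**Figure D2:**
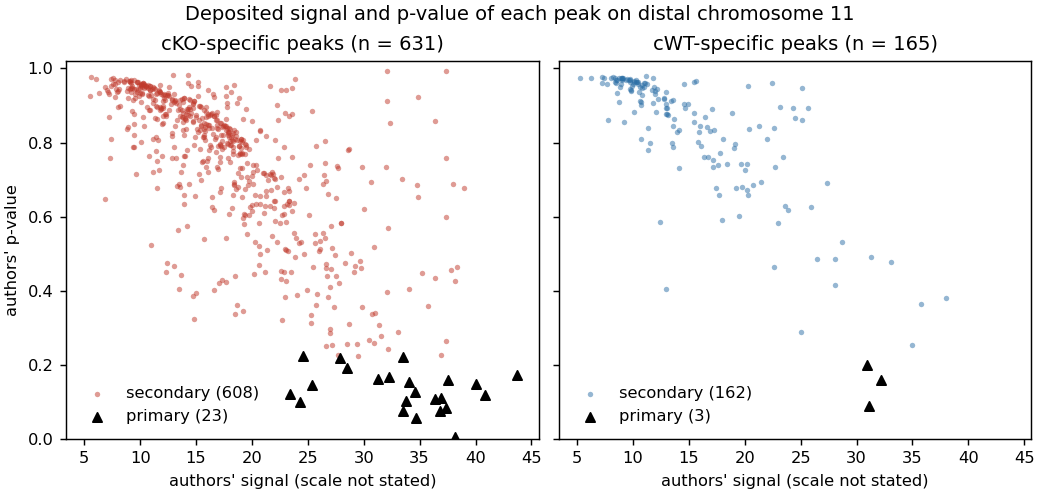
The authors' signal (x axis, no stated scale) and p-value (y axis) of each of 631 cKO peaks (left) and 165 cWT peaks (right), with peaks named primary as triangles. Most peaks of both lists lie at high p-values (medians 0.800 in cKO and 0.893 in cWT), and the single cKO peak at the foot of the left panel is that at Gm11205 (0.00574).

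Most peaks on the stretch had low scores and high p-values. The median p-value was 0.800 in cKO and 0.893 in cWT, and 102 cKO peaks (16.2%) and 14 cWT peaks (8.48%) had a p-value up to 0.5. In the rest of the genome those shares were 11.8% and 6.05%. Only 23 cKO and 3 cWT peaks were named primary by the authors, a name carried by their lowest p-values. Signals had a median of 17.2 (5.50 to 43.7) in cKO and 13.4 (5.29 to 38.04) in cWT, against 16.5 and 13.8 elsewhere. Widths had medians of 326 bp in cKO and 363 bp in cWT, and the widest were 1142 bp and 895 bp.

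Peaks of the stretch lay nearer to genes than peaks elsewhere. With 17.1 coding genes per Mb against 7.94, any position on the stretch tends to lie nearer to a gene. The part of gene density in these distances was not tested. Of cKO peaks, 127 (20.1%, interval 17.1% to 23.5%) had their midpoint within 1000 bp of an end of a coding gene, called a gene end here, against 13.2% in the rest of the genome. Of cWT peaks, 43 did (26.1%, interval 19.5% to 33.5%), against 15.4%. A further 324 cKO peaks (51.3%) and 80 cWT peaks (48.5%) lay inside genes. The median cKO peak lay 8060 bp from a gene end (12795 bp elsewhere) and the median cWT peak 6785 bp (16253 bp elsewhere). The intervals of the cKO and cWT gene-end shares overlap on the stretch.

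Promoter windows of 300 bases, 250 before to 50 after each start, take the strand into account. Specific cKO peaks overlapped 77 of the 1890 promoters on the stretch (4.07%) against 2.18% of all 32851 promoters, and cWT peaks overlapped 23 (1.22%) against 1.07%. The 77 promoters belonged to 72 genes and 68 peaks, and the 23 to 20 genes and 17 peaks, since neighbouring starts share peaks. Wrap53, a divergent neighbour of Trp53, was the gene with promoters under peaks of both lists. A cWT peak (69580178 to 69580512, signal 12.4, p-value 0.584) lay at the start of Trp53, which encodes the p53 tumour suppressor, and covered a Wrap53 window whole. A cKO peak (69578902 to 69579216, signal 18.6, p-value 0.361) reached 17 bases into the window of another Wrap53 start.

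The covered promoters were GC-rich. Their median GC content was 59.3% for cKO and 61.7% for cWT, against 55.7% on the stretch and 52.7% in all promoters. The GC box stood in 40 of 77 cKO promoters (51.9%) and 15 of 23 cWT promoters (65.2%), against 41.6% on the stretch and 35.7% of all. The CCAAT box was in 19 (24.7%) and 9 (39.1%), against 36.4% and 37.4%. Motifs of factors that act in macrophages were counted the same way. The PU.1 or ETS site was in 6 cKO promoters (7.79%, against 3.44% on the stretch and 3.20% of all), the interferon-response element in 5 (6.49%, against 3.76% and 3.44%) and the AP-1 site in 8 (10.4%, against 7.41% and 7.81%). The E-box was in 12 cKO promoters (15.6%) and 3 cWT promoters (13.0%), against 9.42% and 7.15%, and the RUNX site TGTGGTT in 5 cKO promoters (6.49%), against 5.03% and 5.27%. The NF-kB site was in 2 cWT promoters (8.70%, against 0.635% and 0.411%) and in none under cKO peaks, and the CRE TGACGTCA in 1 cWT promoter (4.35%, against 2.28% and 1.79%) and in none under cKO peaks. The STAT site TTCCNGGAA, the C/EBP site TTGCGCAA and the MEF2 site were in none of either, and they stand in 1.15%, 0.183% and 0.164% of all promoters. These are a few promoters each, and sequence composition moves with motif counts, so their part was not tested.

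Of the 1397 coding genes on the stretch, 389 (27.8%) had at least 1 assigned cKO peak and 142 (10.2%) at least 1 cWT peak, against 22.5% and 11.4% of all 21887 coding genes. Both kinds were assigned to 89 genes, cKO alone to 300 and cWT alone to 53. Assignment went to the nearest gene end within 100 kb and placed 769 of 796 peaks (96.6%). Peaks deep inside long genes could thus stay unassigned or count for a neighbour, so long genes can be undercounted. Msi2, with 2 assigned cKO peaks, held a run of 3 others (88598612 to 88600009). A run of 4 cKO peaks with peaks inside Ssh2 (77239350 to 77319100) was nearest to an end of Efcab5. Assigned peaks were spread thinly, since 254 genes had a single assigned cKO peak and 22 had 4 or more. More cWT than cKO peaks were assigned to 57 genes.

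By this assignment Rptor, Nf1 and Srcin1 led with 7 cKO peaks each. Rptor encodes Raptor, the substrate-recruiting subunit of the growth regulator mTORC1, and its 7 peaks, among 16 numbered over 261 kb, had signals from 10.01 to 26.6, beside 1 cWT peak. Srcin1, an inhibitor of Src kinase, had 7 of the 8 peaks numbered at its locus listed as cKO-specific, over 64.6 kb and with no cWT peak. Nf1 encodes neurofibromin, which switches Ras off. Its peaks fell in 3 places. Inside the gene, 1 peak began at 79398421, and 3 lay from 79573923 to 79578047. The other 3 lay in the intergenic space from 79305721 to 79307316, 32371 to 33719 bp from its nearer end. Some peaks abut with no gap and carry the same signal, such as 79573923 to 79574268 and 79574269 to 79574468 in Nf1 (signal 20.7 in both), so a number of peaks is not a number of separate sites. Such abutting pairs numbered 20 in cKO and 2 in cWT.

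Genes of small GTPase and phosphoinositide signalling followed. Abr, a regulator of Rac and Cdc42, carried 5 cKO and 2 cWT peaks, the strongest cKO signals being 28.3 and 24.0. Pik3r5 carried 5 cKO and 2 cWT peaks, among them the widest peak of the stretch, 1142 bp, whose midpoint lay 250 bp before its lower end (68431305 to 68432446, signal 25.4, p-value 0.145). Its neighbour Pik3r6, the other regulatory subunit of that kinase, carried 4 cKO peaks and no cWT peak. Pitpnc1, a phosphatidylinositol transfer protein, carried 5 cKO peaks and 1 assigned cWT peak, all inside the gene.

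The other genes of the 15 with the most assigned cKO peaks have varied roles. Gas7, which shapes actin and membranes, had all 5 peaks numbered over 50.3 kb listed as cKO-specific, with signals from 9.54 to 31.0, beside 1 cWT peak at 9.71. A further cKO peak (signal 15.9) and an overlapping cWT peak (19.5) lay inside Gas7 but were assigned to another gene, Glp2r. Septin9 (a septin filament subunit) carried 5 cKO and 1 cWT, the axonemal dynein Dnah17 and the synaptic scaffold Tanc2 5 and 0 each, and Arhgap23 4 and 0. Aurkb, the kinase of the chromosomal passenger complex, had all 4 peaks numbered over 11.4 kb listed as cKO-specific, and a cWT peak lay 4304 bp from it. Alox12, a 12-lipoxygenase, carried 4 cKO peaks, 2 of them at a gene end. Sec14l1 carried 4 cKO and 2 cWT peaks, all intergenic.

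**Figure D3:**
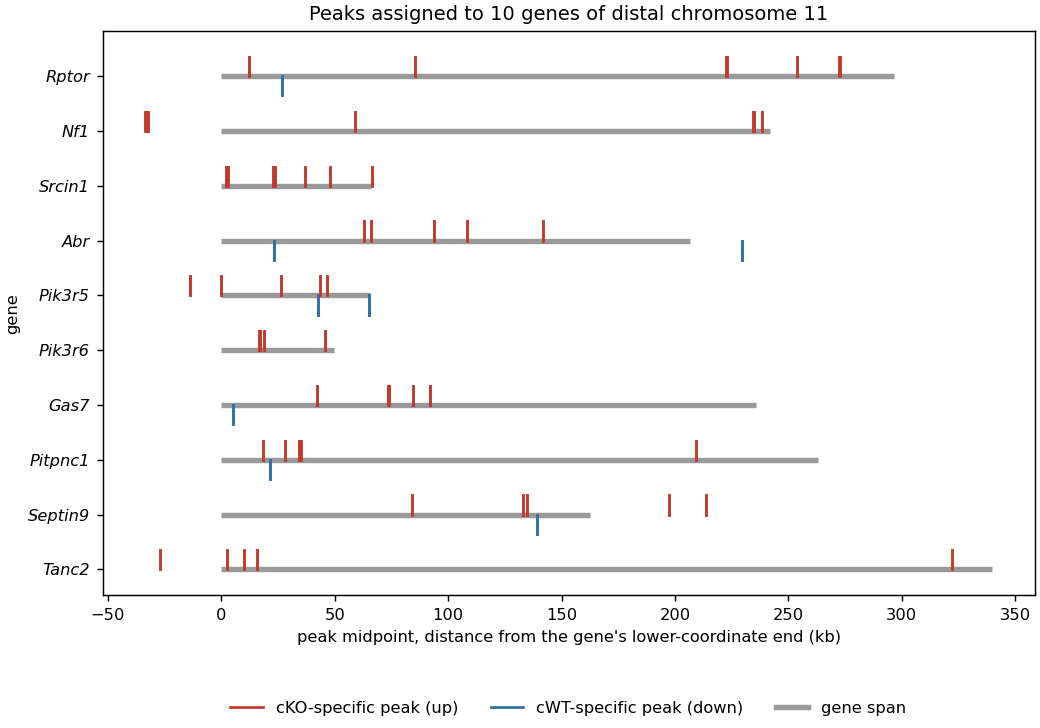
Midpoints of assigned cKO (red, upward) and cWT (blue, downward) peaks at 10 genes, as distance in kb from each gene's lower-coordinate end, with gene spans as grey bars. Rptor has 7 red and 1 blue mark, and the Nf1 marks left of 0 are its 3 intergenic peaks.

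The genes with the most assigned cWT peaks were led by Rtn4rl1, a Nogo receptor homologue, with 3 cWT and 2 cKO peaks. Its cWT peaks at 75193412 and 75193681 adjoin at a gene end (signal 10.7 for both), and its cKO peaks lay farther along. A similar arrangement stood in Itgb3, the integrin subunit that pairs with alpha-V, with 2 cWT peaks within 1000 bp of a gene end (signals 17.4 and 8.88) and 3 cKO peaks in its interior (7.35 to 18.3). In Socs7, a suppressor of cytokine signalling, 2 cWT peaks lay at or just past a gene end and both cKO peaks farther on. Rhbdl3, Marchf10, Jup and Cby3 had 2 cWT peaks each, with 3, 3, 2 and 1 cKO peaks. Cyth1 and Gprc5c had 2 cWT peaks and 1 cKO peak each, and Ace, Map2k3, Nt5m and Tnfrsf13b had 2 cWT peaks and no cKO peak. At Gprc5c the cKO peak overlapped a cWT peak by 21 bp.

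**Figure D4:**
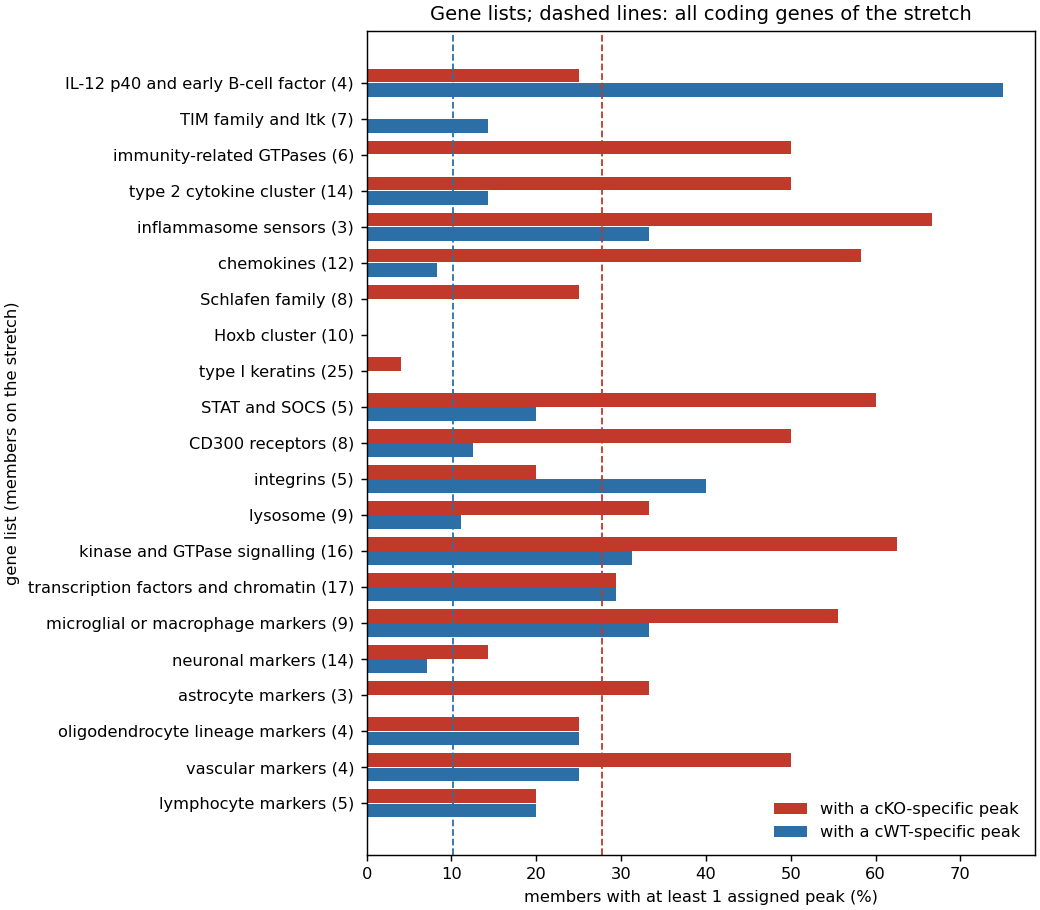
Bars give the percent of each gene list's members on the stretch (number in brackets) with at least 1 assigned cKO (red) or cWT (blue) peak; several lists hold under 10 genes. The dashed lines are the shares over all coding genes of the stretch, 27.8% for cKO and 10.2% for cWT.

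The type 2 cytokine cluster held both cytokine genes and their neighbours. Of its 14 genes, 7 had a cKO peak and 2 a cWT peak, with 10 and 2 peaks in all, against backgrounds of 27.8% and 10.2% over the coding genes of the stretch. Irf1, the interferon-response transcription factor, had 3 cKO peaks 11835 to 21651 bp from its gene, the strongest with a signal of 34.9. Il3, a growth factor for myeloid progenitors, had 2 cKO peaks, 1 of them at its gene end (signal 10.9). Csf2, which encodes the macrophage growth factor GM-CSF, had a single cKO peak 32541 bp away. Il5, the eosinophil cytokine, had a cKO peak and a cWT peak that overlapped at 53735637, with signals of 18.6 and 16.4. Il4 and Il13, the leading type 2 cytokines, had none of either list. The lists were put together with earlier results of these data known, so these counts are a description.

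Of the 12 chemokine genes, 7 had a cKO peak and 1 also a cWT peak, against 27.8% and 10.2% of all coding genes of the stretch. Ccl6, a macrophage chemokine, had a cKO peak over its start (83592898 to 83593203, signal 16.8) and a cWT peak 2784 bp away (signal 17.8). The block from Ccl5 to Ccl4, 139 kb long, held 5 cKO peaks and 1 cWT peak. The block from Ccl2 to Ccl1, 144 kb long, held no peak of either list, and the peaks assigned to Ccl2 and Ccl1 lay outside it. The nearest cWT peak to that block was 1415961 bp off.

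Innate immune sensors and effectors carried cKO peaks, some of them over a start. Irgm1, Irgm2 and Ifi47, 3 of 6 immunity-related GTPases that attack intracellular pathogens, each had a cKO peak, and none of the 6 had a cWT peak. Over all coding genes of the stretch, 27.8% had a cKO peak and 10.2% a cWT peak. The Irgm1 peak was 795 bp wide and covered the promoter shown above (signal 26.8, p-value 0.381). Nlrp3, the sensor of the canonical inflammasome, had a 941 bp cKO peak over its start (59541192 to 59542132, signal 27.6, p-value 0.738) and a cWT peak in its interior (signal 8.58). Among 8 listed CD300 receptors, which tune myeloid activation, 4 had a cKO peak. By symbol the stretch held 12 Cd300 genes, 5 with a cKO peak, including Cd300ld3, which was not on the list and had 2. The block without the distant Cd300lg, 246 kb long, held 7 cKO peaks, those of Cd300ld3 among them, and no cWT peak. The 1 cWT peak assigned to Cd300lf lay 6685 bp outside. Stat5b, which carries signals from growth factor receptors, had 3 cKO peaks with signals from 21.0 to 23.3, and Socs3, which ends such signals, had 2. Stat3 and Stat5a, on the same list, had neither.

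Of 16 kinase and GTPase signalling genes, 10 had a cKO peak and 5 a cWT peak, against 27.8% and 10.2% of all coding genes of the stretch. These genes held 28 and 7 peaks in all. Nf1, Pik3r5 and Pik3r6 held 16 of those 28. Map3k14, the kinase of the noncanonical NF-kB pathway, had 2 cKO peaks and 1 cWT peak, and Map2k3, an activator of p38 kinases, had 2 cWT peaks and no cKO peak. Of 17 transcription factor and chromatin genes, 5 had a cKO peak and 5 a cWT peak, against the same 27.8% and 10.2%. Cbx8, a Polycomb subunit, had 3 and 1, and the clock repressor Nr1d1 had a single cWT peak. The list named lysosome includes Gps2 and Tmem106a, whose place in it was not checked and which had no peak of either list. Of its 9 genes on the stretch 3 had a cKO peak and 1 a cWT peak, against the same shares. Among them were Grn, the gene of progranulin, with a cKO peak at its gene end (102430870 to 102431282, signal 25.7, p-value 0.362), and the acid glucosidase gene Gaa with 2.

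Some lists did not lean to cKO. Among Il12b, Ublcp1, Ebf1 and Clint1, 3 genes had a cWT peak and 1 a cKO peak. The cWT peak assigned to Il12b, the p40 subunit of IL-12 and IL-23, lay 43773 bp from it (signal 8.23), and that of Ebf1 at its gene end (signal 9.03). The 7 TIM family genes and their neighbours had a single cWT peak, 7198 bp from Havcr2, which encodes the immune receptor TIM-3. Of 5 integrins 2 had a cWT peak and 1 a cKO peak. For all these lists, the shares over coding genes of the stretch were 10.2% with a cWT peak and 27.8% with a cKO peak.

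Some large families held few or no peaks. The 83 odorant receptor genes had none of either list. The Hoxb cluster, 10 genes, had none either, its nearest cKO peak lying 60264 bp and its nearest cWT peak 444604 bp away. Of 25 type I keratins 1, Krt42, had a cKO peak, and the keratin block of 990 kb held no peak inside. The small Schlafen family, induced by interferon, is not counted among these: of 8 genes, 2 had a cKO peak and none a cWT peak. Over all coding genes of the stretch the shares were 27.8% and 10.2%.

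Markers of cell types on the stretch were read beside the label, though lists of genotype-specific peaks cannot establish a cell type. Of 9 microglial or macrophage markers, 5 had a cKO peak and 3 a cWT peak. Cd68, Nos2, Alox15 and Mpo had neither. Over all coding genes of the stretch, 27.8% had a cKO peak and 10.2% a cWT peak. Lgals9 had a 605 bp cKO peak over its start (signal 23.4, p-value 0.122), and Abi3, a regulator of actin that is known from microglia, a 563 bp cKO peak at its gene end (signal 28.7). Adap2 had 2 cKO peaks and 1 cWT peak, and Sparc and Ltc4s 1 of each. Elsewhere in the genome, P2ry12 had 3 cKO and 2 cWT peaks, Sall1 2 and 0, Tmem119 1 and 0, while Cx3cr1 and Csf1r had none, which the lists allow because peaks shared by the genotypes are not in them. Of 14 neuronal markers 2 had a cKO peak and 1 a cWT peak, of 3 astrocyte markers 1 and 0, of 4 oligodendrocyte markers 1 and 1, and of 5 lymphocyte markers 1 and 1. Vascular markers had more, 2 of 4 with a cKO peak: Pecam1, the endothelial adhesion molecule, had 3 and Icam2 had 1, at signals from 9.20 to 17.9, and Ace had 2 cWT peaks. Pecam1 and Icam2 are also made by some blood cells, and the part of other cells in these peaks was not tested.

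Of the 72 microRNA genes on the stretch, 19 had a cKO peak within 10 kb and 5 a cWT peak, against 15.3% and 6.07% of 1005 hairpins in the genome. Mir142, whose products mark blood-derived cells and whose mature sequences are given above, had a cKO peak 67 bp before its hairpin (87756561 to 87756797, signal 10.9, p-value 0.524), while the nearest cWT peak was 178156 bp away. Mir142b lies on the opposite strand of the same place, so the 2 share that peak. The hairpin of Mir5100 lay wholly inside the cKO peak at the Mief2 start. Mir12181 was among the 2 with a cWT peak within 1 kb, at 321 bp (signal 24.3), with a cKO peak 4839 bp away. Mir146 and Mir21a, which are prominent in macrophages, had no specific peak within 10 kb: the nearest cKO and cWT peaks lay 22207 bp and 11990 bp from Mir146, and 40148 bp and 267473 bp from Mir21a.

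Many specific peaks were neighbours in the numbering of called peaks. In cKO, 351 of 631 peaks (55.6%) had a neighbour in the numbering that was also specific, against 48.8% in the rest of the genome, and 18 runs held 4 or more. The genes naming a run are those with the nearest ends. The longest runs held 6 peaks each. The first lay wholly inside Gas7 (67495125 to 67564963). Its last peak was nearest to an end of the glucagon-like peptide receptor gene Glp2r, 99360 bp off. The other ran from Srcin1 to Epop (97545926 to 97642293). Runs of 5 lay from Arhgap23 to Srcin1, from Tanc2 to Cyb561 and from Bptf to Pitpnc1. In cWT, 39 of 165 peaks (23.6%) were in runs, against 29.8% elsewhere, and the longest held 3, from Map2k3 to Tnfrsf13b (60962776 to 61104643). Beside these runs, 31.1% of numbered cKO peaks on the stretch (interval 29.1% to 33.2%) were listed against 10.3% of cWT peaks (8.82% to 11.8%). In the rest of the genome these shares were 25.5% and 12.3%. A larger listed share gives more specific neighbours by itself, and the stretch was picked on its lean to cKO. Nothing is therefore read from the difference in runs.

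**Figure D5:**
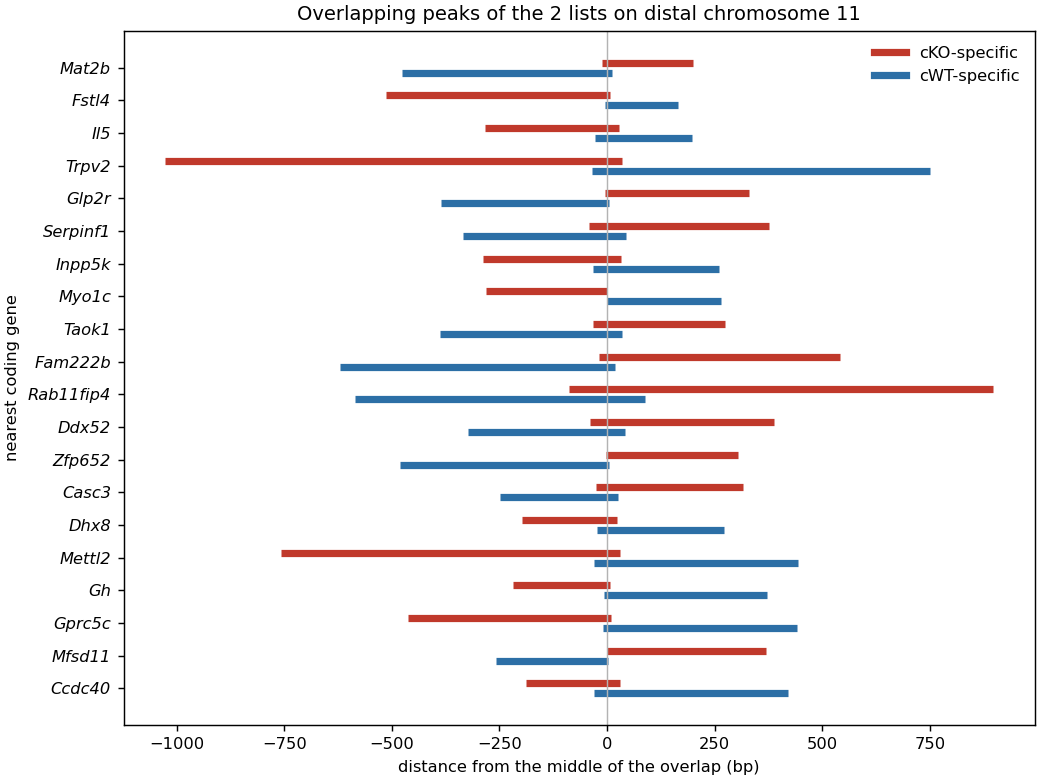
Spans of the cKO (red) and cWT (blue) peak in each of the 20 overlapping pairs, in bp from the middle of the overlap, by nearest coding gene. The peaks meet at their edges, with overlaps of 1 to 179 bp.

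Peaks of the 2 lists could still share bases. On the stretch, 20 cKO peaks (3.17%) overlapped 20 cWT peaks (12.1% of that list) by 1 to 179 bp, with a median of 49.5 bp and at most 28.6% of either peak. The cKO peak stood at the lower coordinate in 10 of these pairs and the cWT peak in the other 10. Of these pairs 6 lay at gene ends, among them Mat2b.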

How the data were processed

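ATAC-seq of sorted microglia gave 2 deposited peak lists, cKO-specific and cWT-specific, with no value per library. Samples were grouped by their titles. The tools named are HOMER 4.11, MACS2 2.2.7.1 and Bowtie2 2.4.4, and the builds mm10 and GRCm38, per the submitters' processing notes. Their roles and settings, any read shift for the transposase, the pooling of replicates and the rule for specific peaks were not given in the sources used here. The deposited lists carry a score, a signal of unstated scale and a p-value. The lists have no header, so these names rest on layout and values, and the deposited score is a fixed multiple of log2 of the deposited p-value. The number in each peak's name rises with position and was read as its place among all called peaks.

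Peaks on chromosome 11 starting at or beyond 40 Mb were taken. A peak went to whichever coding gene of RefSeq GRCm38.p6 had an end closest to it, up to 100 kb, and was compared with RefSeq promoters (250 bases before to 50 after a start) at a minimum overlap of 1 bp. Intervals are exact binomial. No test was made, since the stretch was chosen by its balance and peaks are not replicates. The members and gene lists were chosen with earlier results of these data known. The rule allowed naming the 15 coding genes with the most cKO and the 10 with the most cWT peaks, the 10 highest-scored peaks per list, list members with a peak, microRNA genes with a peak within 10 kb, the longest runs, the windows of highest and lowest ratio and the peaks beside 40 Mb. Grouping windows by gene count, and naming Pik3r6, Kcnj16, Kcnj2, Wrap53, Mir146, Mir21a and the cWT ties Cyth1, Gprc5c, Ace, Map2k3, Nt5m and Tnfrsf13b, came after the values were seen. Alternatives covered the p-value, the score, the start of the stretch, the gene-end window, the gene set, the assignment limit and the merging of peaks within 500 bp. The result of 1 marker gene outside the stretch is not reported here. The counting steps were checked on simulated data. Python 3.11.15, numpy 2.4.6, pandas 2.3.3, scipy 1.17.1 and matplotlib 3.10.9 were used.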

Additional observations from a re-analysis of the deposited data

How the results depend on the processing

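Of 24 alternatives tried over 11 values, 13 moved the value by less than its interval (or a count by at most 1.5 times), and 11 moved it by more. The stretch was picked on its balance, so the cKO share under other settings is a description only. The cKO share of 79.3% was 81.0% in the upper part of each list by score, divided at its median, 78.6% after merging, and 78.8% or 79.6% with a start at 30 or 50 Mb. It was 87.9% for peaks with a p-value up to 0.5 (102 cKO, 14 cWT) and 88.5% for peaks named primary (23 and 3). In the rest of the genome the cKO share was 82.4% and 83.0% at those limits. The gene-end share was 31.1% in cKO and 37.6% in cWT with a window of 3000 bp, 25.7% and 33.9% with all annotated genes, and 36.3% and 42.9% at a p-value up to 0.5, where median widths were 447 bp and 387.5 bp. An assignment limit of 10 kb left 91 genes with a cWT peak, from 142, and 40 members of the gene lists with a cKO peak, from 60. The wider window, larger gene set and shorter limit move these counts by construction. For the p-value limit the cause was not tested. No paired analysis was possible because the lists carry no value per library, and for the same reason no replicate could be left out. Unknown depth per library limits every count.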

Other observations

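Other families of the stretch were counted by symbol after the values were seen, against 27.8% of coding genes on the stretch with a cKO peak and 10.2% with a cWT peak. Of 32 solute carrier genes, which move metabolites across membranes, 12 had a cKO peak and 2 a cWT peak, and Slc43a2, an amino acid transporter, had 3 cKO peaks. Of 11 Trim genes, many of them ubiquitin ligases of innate immunity, 4 had a cKO peak and none a cWT peak, with 4 peaks at Trim7. Of 6 potassium channel genes 4 had a cKO peak and 1 a cWT peak, among them Kcnj2, an inward rectifier. Of 7 muscle and nonmuscle myosin heavy chain genes 1, Myh3, had a cKO peak. The complement of the miR-137-3p seed (AGCAATA) stood in 1 of the 77 promoters under cKO peaks (1.30%), against 1.90% on the stretch and 2.16% of all promoters, as a description of DNA windows and not of mRNA targets.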
